A study of Mus musculus with 6 samples.

Results

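CDK inhibitors, D-type cyclins and the transcription factor E2f2 were followed in NMuMG cells under TGF-beta, with and without siRNA against Mnt. NMuMG cells are a mouse mammary epithelial line, not derived from a tumour, that undergoes an epithelial to mesenchymal transition under TGF-beta. All 6 RNA-seq libraries came from cells at day 4 of TGF-beta, and the agent and the siRNA were both given 16 hours after plating and again on day 2. The 3 siNTC libraries received a non-targeting siRNA and the 3 siMnt libraries an siRNA that lowers Mnt, a repressor that pairs with Max on E-box DNA. Both groups had TGF-beta and no untreated library was analysed here, so each difference below is between siRNAs under TGF-beta, in 1 cell line. The members were taken by symbol from the deposited table of normalised read counts. Of the 10 symbols looked up, 9 were among the 14526 genes of the table (Cdkn1a, Cdkn1b, Cdkn2b, Cdkn2c, Cdkn2d, Ccnd1, Ccnd2, Ccnd3 and E2f2), Cdkn1c was dropped, and all 9 had a mean of at least 10 and were among the 12568 genes tested.

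D-type cyclins activate the kinases Cdk4 and Cdk6, which phosphorylate the retinoblastoma protein and so free E2F factors to switch on the genes of DNA replication. INK4 proteins (Cdkn2a to Cdkn2d) bind Cdk4 and Cdk6 and block this step. Cip/Kip proteins (Cdkn1a to Cdkn1c) mainly inhibit Cdk2 complexes. TGF-beta is known to arrest epithelial cells in G1 in part by inducing Cdkn2b, and Myc, which competes with Mnt for Max, is known to repress Cdkn2b.

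Levels are read counts normalised by 1 size factor per library, given as mean ± SD (n = 3 libraries per group). A log2 fold change is the siMnt mean of log2(value + 1) less the siNTC mean, given ± its standard error. The adjusted p-value (limma, Benjamini-Hochberg) was taken over the 12568 tested genes, and a gene passed under 0.05. The members were chosen by their measured differences between siMnt and siNTC in these 6 libraries, so their differences and adjusted p-values describe where each gene lay in the fit of the whole table and are no independent evidence. By limma 2 of 9 members passed, E2f2 higher and Cdkn2b lower in siMnt, against 3.93% of all tested genes (2.56% higher and 1.37% lower). The rule used this comparison, and nothing is read from that count.

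Recovered library totals were 32418904, 24767602 and 42193291 reads in siNTC replicates 1, 2 and 3 and 25666005, 22323050 and 22336675 in siMnt. Mnt, the targeted gene, held 1316, 896 and 1596 normalised read counts in siNTC replicates 1, 2 and 3 and 613, 557 and 749 in siMnt. It was at 50.4% of its control level, without overlap (adjusted p = 0.0546, limma; 0.00442 with the replicate number as a block). SiNTC replicate 3 lay at -0.81 on the first principal component, between the other controls at -43.0 and -52.3 and the siMnt libraries at 29.4 to 35.5. Same-numbered libraries deviated together, so the difference within each replicate number and the value under a replicate block are given where they bear on a member. Of the mammary epithelial markers 5 of 8 were in the table (Krt8, Krt18, Krt19, Cdh1 and Cldn4), with a summed level of 114355 to 141608 in siNTC and 126456 to 137884 in siMnt, while Epcam, Cldn3 and Cldn7 were not analysed here. Fibroblast markers summed to 308 to 396 and 410.5 to 564, and leukocyte markers to 128 to 275 and 126 to 216. Endothelial markers summed to 65.2 to 99.6 in siNTC and 41.8 to 49.0 in siMnt, and the only adipocyte marker in the table, Cidec, lay at 5.24 to 30.4 and 13.0 to 19.1. No marker passed. In bulk samples a change in the share of cycling cells and a change in RNA per cell cannot be told apart.

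E2f2 showed the largest difference of the 9 members. It encodes an activating E2F factor, is itself a known target of E2F and Myc, and was the least abundant member. The siNTC libraries held 116, 48.7 and 124 normalised read counts (replicates 1, 2 and 3) and the siMnt libraries 305, 255 and 241. Every siMnt library was above every control, and siNTC replicate 2 was lowest of all. The mean went from 96.3 ± 41.4 to 267 ± 33.4, a log2 fold change of 1.57 ± 0.35 (adjusted p = 0.0498, limma; 0.00828 with the replicate block). Within replicate numbers 1, 2 and 3 the log2 difference was 1.38, 2.37 and 0.96. These values rest on few reads: siNTC replicate 2 held 44 reads of E2f2, with a 95% exact Poisson interval of 35.4 to 65.4 normalised read counts, and siMnt replicate 3 held 197 reads, with an interval of 209 to 278, for counting error only. E2f2 no longer passed with edgeR (adjusted p = 0.0523), with a pseudocount of 0.5 (0.0511, limma), without a variance trend (0.0744) or with a minimum mean of 50 (0.0563). It passed without siNTC replicate 2 (adjusted p = 0.0408, limma) or siNTC replicate 3 (0.0122), but not without siNTC replicate 1 (0.131) or siMnt replicate 1, 2 or 3 (0.22, 0.177 and 0.111). The log2 fold change was between 1.14 (without siNTC replicate 2) and 1.81 (without siNTC replicate 3) over all 18 alternatives.

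E2f2 has 2 start regions in RefSeq, and the table does not say which one its reads came from. Both are shown because the gene is known to be driven by E2F factors through sites at its start. The stretches are from RefSeq's mouse promoter windows (build GRCm38.p6, whereas the counts were made on mm9), plus strand, and capitals mark letters that match one of 3 motifs searched on both strands: the E-box CACGTG, the E2F motif TTTNNCGC and the GC box GGGCGG.
E2f2, first start, chr4:136172174-136172273, bases -100 to -1 before the start: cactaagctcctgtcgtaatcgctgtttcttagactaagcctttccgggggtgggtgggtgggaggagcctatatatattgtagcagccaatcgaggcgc
E2f2, first start, chr4:136172274-136172297, bases 1 to 24 from the start: ggcaTTTTCCGCgggagatccgaa
E2f2, first start, chr4:136172300-136172323, bases 27 to 50 from the start: tggcggcatatagTTTGGCGCtaa
E2f2, second start, chr4:136180682-136180781, bases -100 to -1 before the start: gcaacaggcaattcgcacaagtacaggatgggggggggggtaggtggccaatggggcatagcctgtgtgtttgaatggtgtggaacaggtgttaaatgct
Both E2F matches in the first window of 300 bases lay just after the start, and no E-box or GC box was found there. The second window held 0 E2F matches, no E-box and 1 GC box, outside the stretch printed. Of the 9 members 7 had windows, 11 in all. Ccnd1 and Ccnd2 had none, so their starts were not searched. Each window runs from 250 bases before the start to 50 bases after it. An E2F match was found in 1 of the 11 windows against 5.17% of all 32851 windows, and an E-box in 1 (a second start of Cdkn2c) against 7.15%. GC boxes were found in 8 of 11, against 35.7% of all windows. No matches of different motifs overlapped in the members' windows. A match describes letters in a window and shows no binding.

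**Figure D1:**
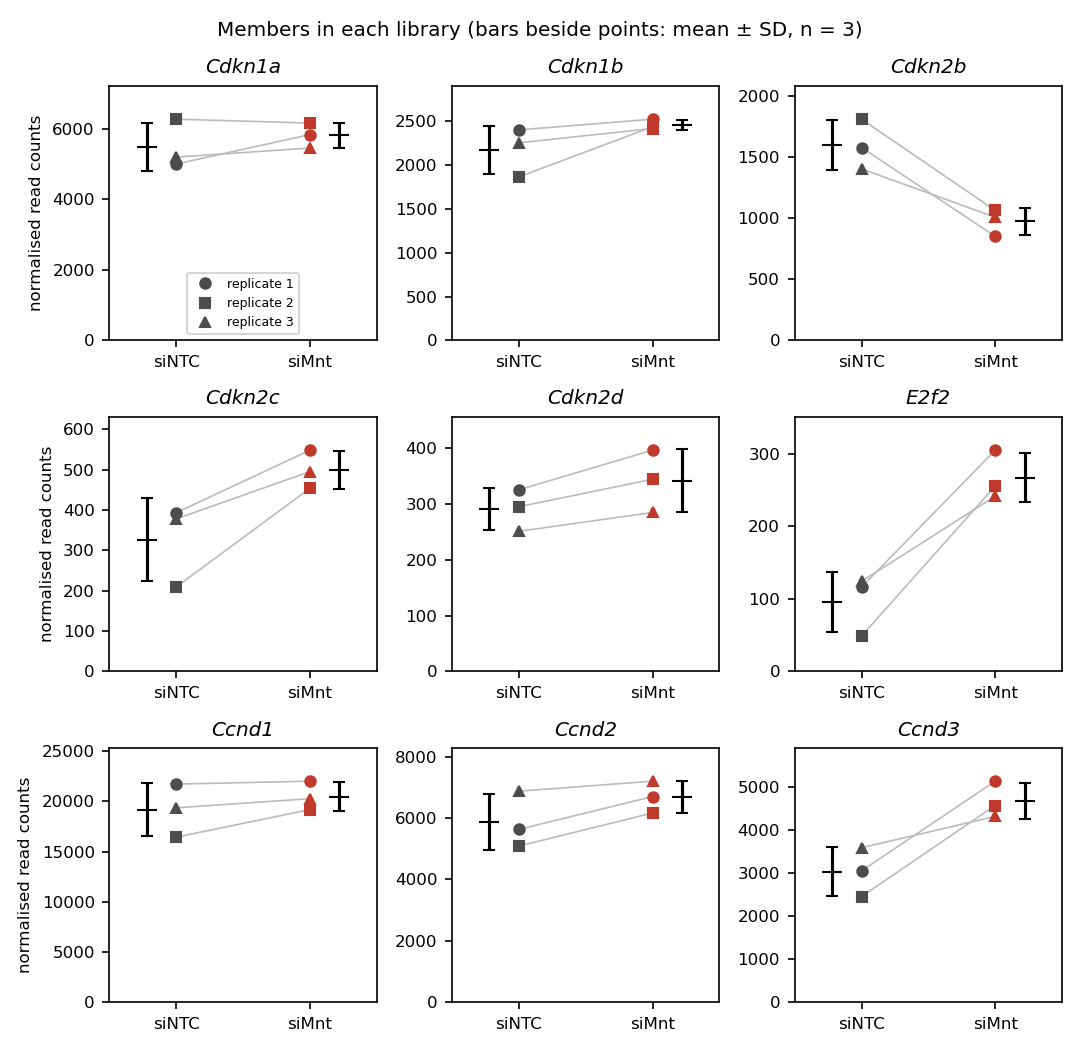
Normalised read counts of the 9 members in each library, siNTC in grey and siMnt in red, with lines joining libraries of the same replicate number and bars giving mean ± SD (n = 3). E2f2, Ccnd3 and Cdkn2c are higher and Cdkn2b is lower in every siMnt library than in every siNTC library. Cdkn1b is also higher in every siMnt library, but narrowly, with 2399 in the highest control and 2415 in the lowest siMnt library. The Ccnd1, Ccnd2, Cdkn1a and Cdkn2d groups overlap.

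Among the D cyclins the difference lay mainly in Ccnd3. Ccnd3 held 3053, 2457 and 3590 normalised read counts in siNTC replicates 1, 2 and 3 and 5136, 4571 and 4318 in siMnt. The groups did not overlap, and siNTC replicate 3 was the control nearest to siMnt. Its mean was 3033 ± 567 and 4675 ± 419, a log2 fold change of 0.64 ± 0.16 that lay outside the threshold (adjusted p = 0.0646, limma). It passed with the replicate block (0.0183), with DESeq2 (0.00806) and without siNTC replicate 3 (0.012, limma). Within replicate numbers 1, 2 and 3 the log2 difference was 0.75, 0.90 and 0.27.

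Ccnd1, the main D cyclin of mammary epithelium, held 21714, 16434 and 19359 normalised read counts in siNTC and 22002, 19175 and 20257 in siMnt. The groups overlapped, with a log2 fold change of 0.10 ± 0.15 (adjusted p = 0.721, limma). Ccnd2 held 5630, 5087 and 6873 in siNTC and 6698, 6163 and 7199 in siMnt, again with overlap (log2 fold change 0.20 ± 0.14, adjusted p = 0.439, limma). Both were higher in siMnt within each of the 3 replicate numbers, Ccnd1 by 0.02, 0.22 and 0.07 and Ccnd2 by 0.25, 0.28 and 0.07 on the log2 scale. Such an order within all 3 numbers was found in 28.4% of tested genes. The sign for Ccnd1 turned without siNTC replicate 2, where the log2 fold change was -0.004.

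Per length, Ccnd1 stayed the most abundant D cyclin in all 6 libraries. Dividing each level by the length of the longest coding transcript, Ccnd1 was at 5125 ± 707 normalised read counts per kb in siNTC and 5475 ± 381 in siMnt, Ccnd3 at 1436 ± 268 and 2213 ± 198, and Ccnd2 at 926 ± 145 and 1056 ± 81.9. Ccnd3 made up 17.7%, 18.3% and 21.3% of the summed D cyclin level per kb in siNTC replicates 1, 2 and 3 and 25.9%, 26.2% and 23.8% in siMnt. The Ccnd1 share was 71.3%, 69.1% and 65.0% in siNTC and 62.8%, 62.0% and 63.0% in siMnt, so neither share overlapped between groups. The summed level was 7487 ± 980 in siNTC and 8744 ± 568 in siMnt, with siNTC replicate 2 lowest. These shares come from the values that chose the members and were not tested.

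Ccnd3 has 2 start regions in RefSeq, and the table does not say which one the reads came from. They are shown because Ccnd3 was the D cyclin that differed most. Neither held an E-box or an E2F match, and each stretch below held 1 GC box, read on the minus strand (GRCm38.p6, plus strand).
Ccnd3, first start, chr17:47504951-47505050, bases -100 to -1: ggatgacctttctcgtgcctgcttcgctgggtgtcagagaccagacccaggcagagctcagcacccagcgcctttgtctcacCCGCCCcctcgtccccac
Ccnd3, second start, chr17:47593367-47593466, bases -100 to -1: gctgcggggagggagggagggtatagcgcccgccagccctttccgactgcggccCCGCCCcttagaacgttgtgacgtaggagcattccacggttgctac

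**Figure D2:**
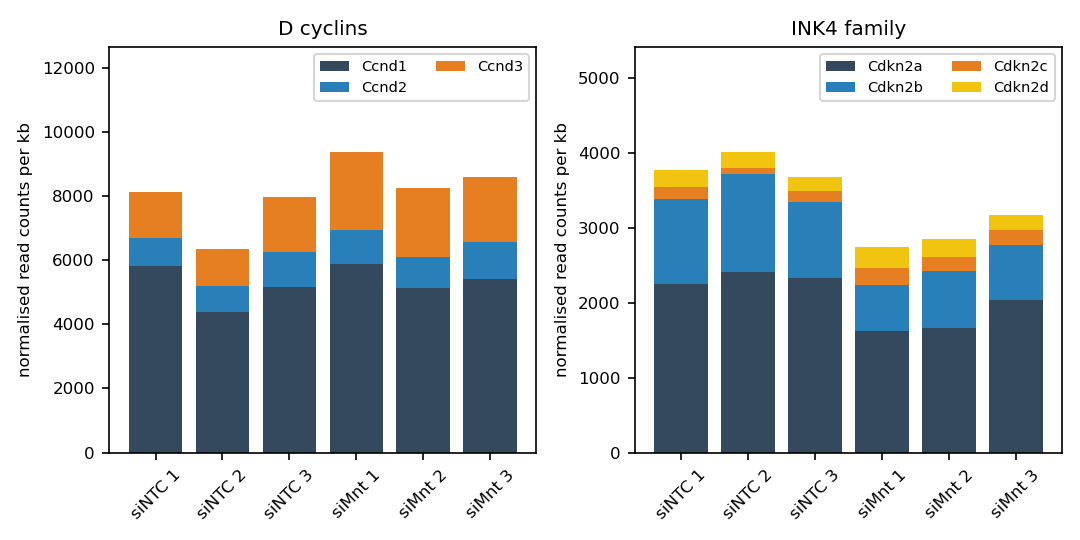
Summed normalised read counts per kb of coding transcript in each library for the D cyclins (left) and the INK4 family with Cdkn2a included (right). The Cdkn2a count covers both p16 and the p19Arf transcript. The Ccnd3 part of the D cyclin bar is taller in each siMnt library, and the INK4 bar is shorter, 2739 to 3162 against 3669 to 4007 in siNTC.

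Of the INK4 members Cdkn2b was lower in siMnt, while Cdkn2c and Cdkn2d had higher means. Cdkn2b, the INK4 inhibitor that TGF-beta is known to induce, held 1579, 1811 and 1404 normalised read counts in siNTC replicates 1, 2 and 3 and 852, 1064 and 1008 in siMnt. No siMnt library reached the lowest control. Cdkn2b fell from 1598 ± 204 to 975 ± 110.1, to 61.0% of control (log2 fold change -0.71 ± 0.14, adjusted p = 0.0417, limma; 0.00897 with the replicate block). Within replicate numbers 1, 2 and 3 the log2 difference was -0.89, -0.77 and -0.48. EdgeR gave adjusted p = 0.0464 and DESeq2 0.000993. Limma without a variance trend gave 0.0661, outside the threshold. When 1 library was left out, Cdkn2b passed only without siNTC replicate 3 (adjusted p = 0.0116, limma), and not without siNTC replicate 1 (0.152) or 2 (0.0638) or siMnt replicate 1, 2 or 3 (0.2, 0.139 and 0.102), with the log2 fold change between -0.80 and -0.62.

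The Cdkn2b start is shown because Cdkn2b was the member that fell (GRCm38.p6, minus strand). No E-box and no E2F match was found in its window, and the single GC box lay after the start, outside the stretch printed.
Cdkn2b, chr4:89311033-89311132, bases -100 to -1: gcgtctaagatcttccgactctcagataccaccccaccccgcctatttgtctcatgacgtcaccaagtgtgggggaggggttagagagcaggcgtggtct

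Cdkn2c, which encodes the INK4 inhibitor p18, lay the other way. It held 393, 209 and 378 normalised read counts in siNTC replicates 1, 2 and 3 and 548, 453 and 495 in siMnt, without overlap. SiNTC replicate 2 was far below the other controls, as it was for E2f2. The log2 fold change of 0.66 ± 0.25 was outside the threshold (adjusted p = 0.163, limma) and inside it with the replicate block (0.034). Within replicate numbers 1, 2 and 3 the log2 difference was 0.48, 1.11 and 0.39. Leaving out siNTC replicate 2 gave a log2 fold change of 0.37 (adjusted p = 0.164, limma).

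Cdkn2d, which encodes the INK4 inhibitor p19, held 325, 295 and 251 normalised read counts in siNTC and 396, 344 and 284 in siMnt. The groups overlapped (log2 fold change 0.23 ± 0.18, adjusted p = 0.49, limma). Within replicate numbers 1, 2 and 3 the log2 difference was 0.28, 0.22 and 0.18.

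Cdkn2a is the remaining INK4 gene and was not among the members. It lies beside Cdkn2b, with Gm12610 starting between them in RefSeq's GRCm38.p6 annotation, and its symbol covers both p16 and the p19Arf transcript, which a gene count cannot separate. It held 2012, 2159 and 2085 normalised read counts in siNTC and 1455, 1483 and 1822 in siMnt, without overlap, and was named after its values were seen. Its log2 fold change was -0.40 ± 0.13 (adjusted p = 0.108, limma; 0.0457 with the replicate block; 0.0441 when GC content and length were corrected for). Per kb, Cdkn2a was the most abundant INK4 gene in all 6 libraries, at 2330 ± 81.8 in siNTC and 1773 ± 228 in siMnt, followed by Cdkn2b at 1150 ± 147 and 701 ± 79.2. Cdkn2d was at 204 ± 26.2 and 239.8 ± 39.2 per kb and Cdkn2c at 132 ± 41.3 and 202 ± 19.2, and the latter pair overlapped in siMnt. Cdkn2b made up 30.1%, 32.5% and 27.5% of the summed INK4 level per kb in siNTC and 22.4%, 26.9% and 22.9% in siMnt.

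Neither Cip/Kip inhibitor passed. Cdkn1a, which encodes p21 and is induced by p53 and by TGF-beta, held 4995, 6264 and 5189 normalised read counts in siNTC and 5827, 6155 and 5447 in siMnt. The groups overlapped, and the sign differed within replicate numbers (0.22, -0.03 and 0.07; log2 fold change 0.09 ± 0.13, adjusted p = 0.72, limma). Cdkn1b, which encodes p27, held 2399, 1864 and 2252 in siNTC and 2521, 2434 and 2415 in siMnt. Its groups did not overlap, but the highest control and the lowest siMnt library were 2399 and 2415 (log2 fold change 0.19 ± 0.13, adjusted p = 0.411, limma). Groups that do not overlap, higher or lower in siMnt, were found in 31.5% of tested genes, and in 5 of 9 members. Per kb, Cdkn1a was at 2636 ± 329 in siNTC and 2793 ± 170.3 in siMnt, and Cdkn1b at 477 ± 60.7 and 539.8 ± 12.4. A p that misses the threshold does not show that these genes were unchanged.

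**Figure D3:**
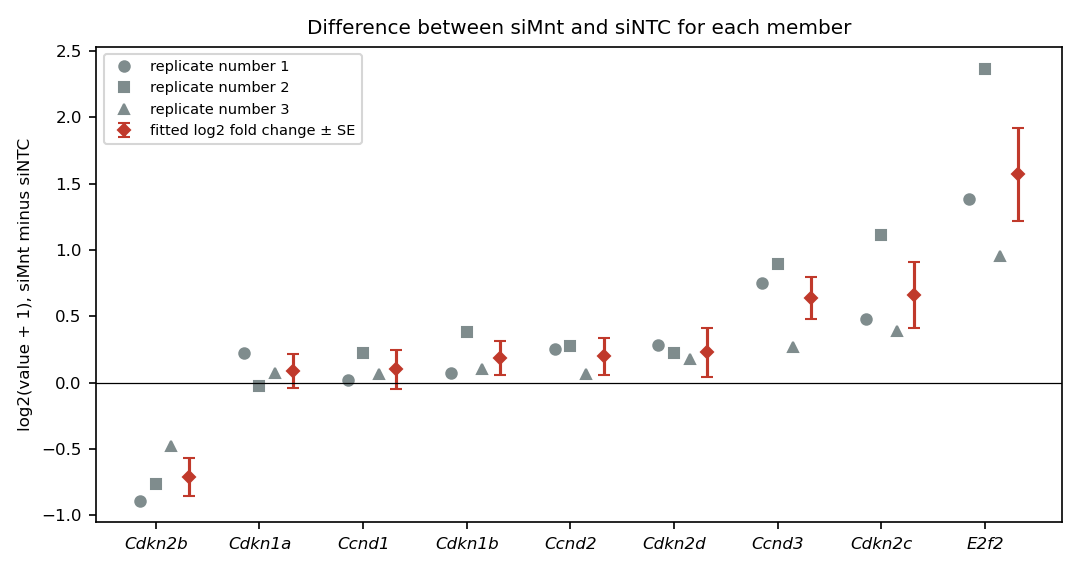
Log2 differences between siMnt and siNTC for each member, within replicate numbers 1, 2 and 3 (grey) and as the fitted log2 fold change ± SE (red). E2f2 stands highest at 1.57 and Cdkn2b lowest at -0.71, and replicate number 3 gives the smallest difference in size for E2f2, Ccnd3, Cdkn2c and Cdkn2b.

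With the block 4 of 9 members passed, E2f2, Ccnd3 and Cdkn2c higher and Cdkn2b lower, against 15.9% of tested genes (9.33% higher and 6.56% lower). Without siNTC replicate 3 there were 3 of 9, E2f2 and Ccnd3 higher and Cdkn2b lower, against 16.0% (9.51% higher and 6.50% lower). EdgeR called 1 of 9, Cdkn2b, against 3.54% (2.29% higher and 1.25% lower). DESeq2 called 3 of 9, E2f2 and Ccnd3 higher and Cdkn2b lower, against 11.6% (6.71% higher and 4.89% lower). With GC content and length corrected for, E2f2 (log2 fold change 1.45, adjusted p = 0.0306, limma) and Cdkn2b (-0.75, adjusted p = 0.0157) passed, against 8.58% (4.24% higher and 4.34% lower). That correction together with the block gave the same 4 members as the block alone, against 20.2% (9.30% higher and 10.9% lower). Without siNTC replicate 2 E2f2 alone of the 9 passed, against 1.73% of tested genes. None passed without siNTC replicate 1 or without any 1 of the siMnt libraries, where limma called 0 genes of the whole table or, without siMnt replicate 3, 125. An unadjusted p under 0.05 was found without siNTC replicate 1 for 4 of 9 members against 17.4% of tested genes, and without siMnt replicate 1, 2 and 3 for 3, 4 and 3 members against 14.4%, 15.3% and 18.1%. The members were chosen by their differences in these same libraries, so nothing is read from these counts of members. Of all calls 65.2% were higher in siMnt, and 49.4% with GC content and length corrected for.

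**Figure D4:**
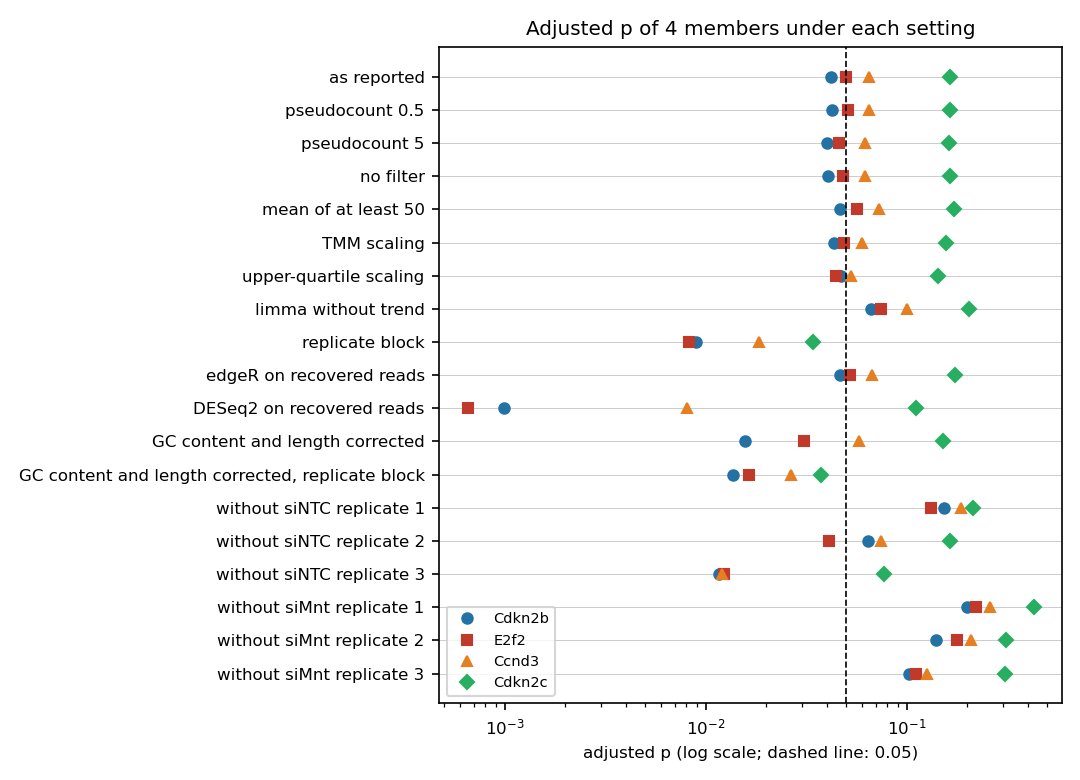
Adjusted p (log axis) of Cdkn2b, E2f2, Ccnd3 and Cdkn2c as reported and under each of 18 alternatives, with a dashed line at 0.05. Cdkn2b passed under 12 of the 18, E2f2 under 10, Ccnd3 under 4 and Cdkn2c under 2, and all 4 lie right of the line without siNTC replicate 1 or any 1 siMnt library.

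Genes whose levels over the 6 libraries were most like E2f2 were Fnbp1 (Pearson r = 0.996), Slc12a2 (0.994) and the small GTPase Rac1 (0.994). For Cdkn2b they were the mitochondrial sulfur dioxygenase Ethe1 (0.995), the bradykinin receptor Bdkrb2 (0.994) and Smim3 (0.994). These are descriptions over 6 libraries and 11211 genes with a mean of at least 50, and 71 genes had r over 0.98 with E2f2 and 32 with Cdkn2b. Among the members, E2f2 correlated over the same 6 libraries at 0.98 with Ccnd3 and 0.97 with Cdkn2c, and at -0.95 with Cdkn2b. Each of these values includes the difference between the siRNA groups, and no test was made.

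Among the rest of the G1/S machinery 1 gene passed. Of 39 listed genes (cyclins E and A, their kinases, retinoblastoma proteins, other E2F factors, their partners and the enzymes that turn cyclins and inhibitors over), 1 rose, 0 fell and 38 did not pass, against 3.93% of all tested genes. The gene that rose was Tfdp2, a dimerisation partner of E2F factors (from 2045 ± 276 to 3223 ± 278, log2 fold change 0.66 ± 0.14, adjusted p = 0.0434, limma). The most abundant members of the list were Ddb1, of the Cul4 ubiquitin ligase, at 42321 ± 2208 and 35035 ± 1306 (adjusted p = 0.269), and Cdk6 at 19446 ± 5207 and 20934 ± 2793 (adjusted p = 0.759). The list median was 0.07, against -0.01 over all tested genes. With the replicate block 3 were higher (cyclins Ccne2 and Ccne1, and Tfdp2) and 2 lower (Tfdp1 and Cdkn2a). Of all tested genes 9.33% were higher and 6.56% lower with the block. Ccne2 was at 307 ± 87.5 and 650.2 ± 163 (adjusted p = 0.0511, limma; 0.00354 with the block). Tfdp2 passed without siNTC replicate 3 (adjusted p = 0.0174) and in none of the other fits that left out 1 library (0.0533 to 0.217).

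E2f2 remained a small part of the E2F family. Per kb it was at 20.3 ± 8.73 in siNTC and 56.4 ± 7.04 in siMnt, while E2f1 was at 339 ± 53.7 and 385 ± 28.3, E2f3 at 251 ± 65.5 and 298 ± 16.4, and E2f4 at 754 ± 61.6 and 769.8 ± 30.8. E2f2 made up 0.795% ± 0.323 of the summed level per kb of E2f1 to E2f8 in siNTC and 2.02% ± 0.148 in siMnt. E2f1 and E2f3, the other activating members, did not pass (adjusted p = 0.476 and 0.432, limma). Cdk4, which D cyclins activate, held 7926, 9537 and 7132 normalised read counts in siNTC and 6214, 6914 and 6993 in siMnt (adjusted p = 0.264, limma). E2f1, E2f3 and Cdk4 were named after their values were seen.

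Among 40 listed E2F targets of S phase entry 1 rose, Ung, the uracil-DNA glycosylase (from 205 ± 47.9 to 439.8 ± 37.6, log2 fold change 1.13 ± 0.21, adjusted p = 0.0333, limma), 0 fell and 39 did not pass. The list median was 0.04, against -0.01 over all tested genes, with 23 genes above 0 and 17 below. The median was -0.10 without siNTC replicate 3, -0.05 without siMnt replicate 1 and 0.04 to 0.14 when any other library was left out. The most abundant, Rrm1, a subunit of ribonucleotide reductase, was at 5171 ± 1071 and 5181 ± 764 (adjusted p = 0.973), and the helicase subunit Mcm4 at 4014 ± 856 and 4116 ± 513 (adjusted p = 0.897). With the block Ung and Rrm2 were higher and 2 genes were lower, Rfc3 among them, against 9.33% and 6.56% of tested genes. Ung passed without siNTC replicate 2 or 3 (adjusted p = 0.0412 and 0.0105) and not without siNTC replicate 1 or siMnt replicate 1, 2 or 3 (0.103, 0.179, 0.148 and 0.076).

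Of 40 genes of G2 and mitosis 0 passed by limma, against 3.93% of all tested genes. At an unadjusted p under 0.05 there were 0, against 23.4%. EdgeR called 0, against 3.54%, and DESeq2 0, against 11.6%. The median log2 fold change of these 40 genes was 0.22, with 35 above 0 and 5 below. The groups did not overlap in 0 of them, against 31.5% of tested genes. Within replicate numbers 1, 2 and 3 the median difference was 0.17, 0.14 and 0.36. Of the 40 genes 20 were higher in siMnt within all 3 replicate numbers and 0 lower, against 28.4% and 29.4% of tested genes. Number 3 was low in both groups: the mean log2 level of the list was 11.03, 11.02 and 10.23 in siNTC replicates 1, 2 and 3 and 11.15, 11.13 and 10.58 in siMnt. Without siNTC replicate 3 the list median was -0.06, and it was 0.13 to 0.41 when any other library was left out. With the replicate block 5 genes were higher (Nek2, Ccnf, Mki67, Cenpf and Anln) and 0 lower, against 9.33% and 6.56% of tested genes, and 15 had an unadjusted p under 0.05, against 33.2%. The proliferation marker Mki67 held 11078, 5969 and 7388 normalised read counts in siNTC and 13896, 11010 and 9525 in siMnt (adjusted p = 0.232, limma; 0.0356 with the block), and topoisomerase Top2a was at 14718 ± 4080 and 16503 ± 2708 (adjusted p = 0.654). Among the controls the list was lowest in siNTC replicate 3, where E2f2 was highest, while Mki67 and E2f2 were both lowest in siNTC replicate 2. Among the siMnt libraries the list, Mki67 and E2f2 were all highest in replicate 1 and lowest in replicate 3. The part of the G2/M level in the E2f2 difference was not tested.

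Of 32 p53 targets besides Cdkn1a, 0 passed by limma, against 3.93% of all tested genes. At an unadjusted p under 0.05 there were 6, against 23.4% of tested genes. EdgeR called 1 (Perp), against 3.54% of tested genes, and DESeq2 3 (Perp higher, Ptp4a3 and Aen lower), against 11.6%. The list median was -0.08. With the block 1 was higher (Perp) and 5 lower (Pmaip1, Ptp4a3, Dusp14, Plk2 and Aen), against 9.33% and 6.56% of tested genes, and without siNTC replicate 3 there were 2 and 5, against 9.51% and 6.50%. Mdm2, the ubiquitin ligase of p53, was at 106002 ± 27178 and 86827 ± 13253 (adjusted p = 0.535), and the cyclin Ccng1 at 12684 ± 1424 and 11643 ± 222 (adjusted p = 0.615).

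**Figure D5:**
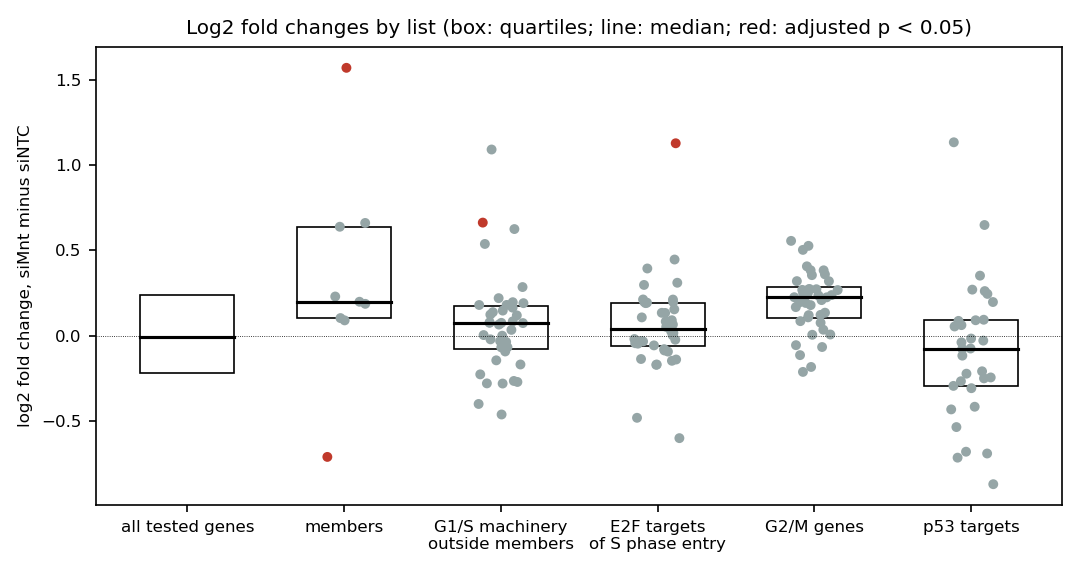
Log2 fold changes (siMnt minus siNTC) of the members and of 4 lists, 1 point per gene, with quartile boxes and median lines and all tested genes as a box alone. Red points passed at an adjusted p under 0.05: E2f2 and Cdkn2b among the members, Tfdp2 in the G1/S list and Ung among the E2F targets. The G2/M points lie mostly above 0, with a median of 0.22. That median was -0.06 without siNTC replicate 3, and 0.13 to 0.41 when any other library was left out.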

How the data were processed

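RNA of NMuMG cells was sequenced in 6 libraries, grouped and numbered by their titles. TopHat2 2.1.0, DESeq2 and build mm9 appear in the submitters' processing notes. Counting tool, annotation and strand were not given in the sources used here. The authors deposited a signal per gene, and from its low values it is each gene's read count over the library's size factor: 99.7% of values above 0 came back within 0.05 read of a whole number.

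Log2(value + 1) of 12568 genes with a mean of at least 10 was fitted with limma 3.58.1 (R 4.3.3, empirical Bayes with trend, no block). EdgeR 4.0.16 and DESeq2 1.42.0 were run on the recovered reads. Same-numbered libraries correlated in their deviations from the group means (0.28, 0.50 and 0.35), every other pair between -0.38 and 0.03, so the fit that adds replicate number as a block is given where it changes a call. Whether replicates were separate cultures is not in the labels, so the spread behind each p-value is that between these libraries and may be technical. On 1 gene alone, an exact permutation test of 3 against 3 cannot go below 0.1. Transcript length and GC content came from the longest coding transcript in GENCODE M21 (98.8% of tested genes), and promoter windows from RefSeq, both on GRCm38 and not on mm9. Scripts were tested on simulated data.

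The members and gene lists were chosen with earlier results of these data known. The values of 1 listed gene are not reported here. Genes named are the members, Mnt, the passing genes of each list (at most 8 in each direction), the 2 most abundant of a list with fewer than 2, and the 3 genes most like each passing member; others are said to be named after their values were seen, as are all genes named only for a call with the block, edgeR or DESeq2.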

Additional observations from a re-analysis of the deposited data

How the results depend on the processing

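Counts of genes called were 494 in all, 2 of 9 members, 1 of the G1/S list, 1 of the E2F targets, 0 of the G2/M list and 0 of the p53 targets. With the replicate block they were 1998, 4, 5, 4, 5 and 6; with the block and the GC and length correction together, chosen after seeing the data, 2510, 4, 5, 4, 5 and 8. The GC and length correction alone gave 1065 in all, 3 G1/S genes, 3 E2F targets and 2 p53 targets, and DESeq2 gave 1457, 3, 3 and 3 for the same sets. Limma without a trend gave 306 in all, 0 members and 0 G1/S genes. A minimum mean of 50 gave 322 in all and 1 member, a pseudocount of 0.5 gave 1 member, and edgeR 1 member and 1 p53 target. With a pseudocount of 5, no filter, TMM or upper-quartile scaling, 2 G1/S genes and 1 p53 target passed. Leaving out 1 library gave 0 to 2012 genes in all, 0 to 3 members, 0 to 4 G1/S genes, 0 to 3 E2F targets, 0 G2/M genes and 0 to 7 p53 targets. Over the 18 alternatives no gene passing in the reported fit and named by the rule changed sign. The cause of these shifts was not tested. E2f2 has the fewest reads of the members, down to 44 in 1 control.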

Other observations

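Mdm2, which encodes the ubiquitin ligase that restrains p53 and so bears on Cdkn1a, ranked 6 of the 14526 genes in the table by normalised read count, and 15 of 14305 by level per kb of transcript. Its level per kb was 33705 ± 8642 in siNTC and 27608 ± 4214 in siMnt (SD, n = 3), 141 times that of the median gene over all 6 libraries, while Cdkn1a stood at 12.5 times the median gene. It was singled out after its values were seen.

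The summed D cyclin level per kb divided by the summed INK4 level per kb, Cdkn2a included, was 2.16, 1.59 and 2.17 in siNTC replicates 1, 2 and 3 and 3.42, 2.90 and 2.72 in siMnt. Cdkn2a made up 61.1% ± 2.09 of the INK4 sum in siNTC and 60.7% ± 3.30 in siMnt. Its count covers both p16 and the p19Arf transcript, so the part of p16 in the sum is not known. This ratio was formed after the values of its parts were seen and was not tested.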
